A study of Mus musculus with 12 samples.

Results

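HOX and other patterning homeobox genes were followed in the nuclear RNA of adult mouse cardiomyocytes. The set was chosen by gene symbol alone: the Hox genes of clusters a to d and the Meis, Pbx, Pknox, Tgif, Irx, Pitx, Prrx, Msx, Dlx, Lhx and sine oculis homeobox genes with a single-digit number. The rule took 84 of the 46983 symbols in the count table. Of these, 39 are Hox genes and 45 belong to the other families. A count was present in at least 1 library for 64 of the 84, and 25 had enough counts to be tested.

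Control libraries came from adult, tamoxifen-treated Myh6-MCM mice, which carry a tamoxifen-inducible Cre recombinase driven in heart muscle by the Myh6 (cardiac myosin) promoter. YAP5SA libraries came from adult, tamoxifen-treated Yap5SA+/tg; Myh6-MCM mice, which carry in addition a transgene for YAP5SA, a version of the co-activator YAP in which inhibitory serines are replaced by alanine. Both groups therefore carry the Cre and received tamoxifen. Nuclei were enriched through PCM1, a protein found around heart muscle nuclei, and each group had 2 libraries. Whether replicates are separate animals is not stated in the labels, and the p-values below therefore speak of the spread among these libraries, part of which may be technical.

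Homeobox genes encode transcription factors that bind DNA through the homeodomain, a helical fold. HOX proteins set position along the body axis, and their genes lie in clusters whose order matches the order of the domains they mark. TALE proteins (MEIS, PBX, PKNOX, TGIF and IRX), which have extra residues in a loop of the homeodomain, include the partners with which HOX proteins bind DNA. In the heart, Meis1 is known as a factor that limits cell cycle activity in postnatal mouse cardiomyocytes, Irx4 marks ventricular muscle, Irx3 acts in the ventricular conduction system, and Prrx1 marks connective tissue cells.

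Total counts ran from 7850661 to 15012122 per library. A count of 0 is compatible with up to 3 counts, equal to 0.397 CPM in the shallowest and 0.202 CPM in the deepest library. CPM are counts scaled to a common library total, here after TMM scaling, which corrects for differences in library composition. The ventricular cardiomyocyte markers Myh6, Tnnt2, Tnni3, Actn2, Ryr2, Ttn, Myl2 and Myl3 summed to between 22559.5 and 64134 CPM, and markers of other heart cells were also present, with 5312 to 7024 CPM for 12 fibroblast genes and 628 to 1832 CPM for 13 macrophage genes (higher in YAP5SA, as given with Pbx4). Ttn held most of the ventricular sum in every library. In such bulk libraries, fewer nuclei of a type and less RNA per nucleus cannot be told apart. The spread was wider among controls: 37.1% of all tested genes were at least 1.5-fold apart between the control libraries, and 10.9% between the YAP5SA libraries.

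The promoter sequences of Irx4, Pbx4 and Prrx1 are shown as a description. Irx4 was the gene nearest to the threshold and Pbx4 the gene with the largest positive fold change. Prrx1 was a tested gene whose promoter holds the full TEAD motif searched. Each sequence runs from 250 bases before to 50 bases after the gene's start, 5′ to 3′ on the gene's strand (RefSeq, GRCm38.p6). Capitals mark GGAAT or its complement ATTCC, the core of the motif bound by TEAD factors, through which YAP reaches DNA.
Irx4 (chr13:73260247-73260546, plus strand): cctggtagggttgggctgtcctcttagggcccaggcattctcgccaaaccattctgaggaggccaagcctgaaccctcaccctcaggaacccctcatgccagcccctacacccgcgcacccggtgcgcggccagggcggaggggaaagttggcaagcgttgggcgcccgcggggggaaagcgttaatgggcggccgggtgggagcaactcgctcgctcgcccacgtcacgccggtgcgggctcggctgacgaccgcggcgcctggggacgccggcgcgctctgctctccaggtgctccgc
Pbx4 (chr8:69832374-69832673, plus strand): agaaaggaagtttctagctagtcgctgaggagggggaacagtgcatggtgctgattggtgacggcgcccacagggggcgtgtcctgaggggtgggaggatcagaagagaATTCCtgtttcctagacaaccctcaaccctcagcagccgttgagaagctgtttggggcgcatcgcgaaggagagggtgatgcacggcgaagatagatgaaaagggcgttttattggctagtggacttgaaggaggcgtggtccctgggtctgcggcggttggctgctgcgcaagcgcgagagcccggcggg
Prrx1 (chr1:163313601-163313900, minus strand): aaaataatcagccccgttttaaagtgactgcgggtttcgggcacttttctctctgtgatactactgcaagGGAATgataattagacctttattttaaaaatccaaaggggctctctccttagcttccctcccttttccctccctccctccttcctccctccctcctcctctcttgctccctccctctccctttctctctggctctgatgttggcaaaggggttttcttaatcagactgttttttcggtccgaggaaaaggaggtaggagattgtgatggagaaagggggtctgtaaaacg

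The Irx4 window holds no match to the core, the Pbx4 window holds 1 (beginning 141 bases before the start, on the complementary strand), and the Prrx1 window holds the full motif GGAATG 180 bases before the start. A promoter was listed for 52 of the 84 genes, in 63 windows. GGAATG or CATTCC was present in 5 of the 63 windows (7.94%), those of Dlx2, Hoxa9, Hoxd10, Prrx1 and Tgif2, and in 14.7% of all 32851 windows. The TALE core TGACAG or its complement CTGTCA was present in 11 windows (17.5%) and in 19.2% of all. GGAATG ends and TGACAG begins with TG, so that the motifs can share these bases. The windows of the set were richer in G and C (median 60.3%) than all windows (52.7%). A match is a description of letters and not of binding.

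None of the 25 tested genes was called different between YAP5SA and control. With the quasi-likelihood test of edgeR, 0 of 25 passed an adjusted p of 0.05 (Benjamini-Hochberg over all tested genes), where 4.12% of all 17715 tested genes passed. At an unadjusted p under 0.05 there were 3 (Irx4, Irx1 and Pbx4), against 23.7% of all tested genes. DESeq2 called 1 of the 27 genes of the set for which it gave an adjusted p, Irx1 (background 8.53%), limma-voom called 0 (background 4.02%), and edgeR with no filter on low counts called 3 of 64, the same genes Irx4, Irx1 and Pbx4 (background 11.2%). The YAP5SA libraries lay wholly above the control libraries for 5 genes (Pbx3, Pbx4, Six4, Irx3 and Lhx6) and wholly below for 6 (Hoxb4, Hoxd8, Six5, Irx1, Irx2 and Irx4), together 11 of 25. Among all tested genes, 56.3% had groups that did not overlap (28.1% higher and 28.3% lower in YAP5SA). The median log2 fold change of the 25 was -0.13 and that of all tested genes was -0.06, and 20 of the 25 had a fold change of less than 0.5 on the log2 scale in either direction, as did 58.9% of all tested genes. A p that misses the threshold does not show that a level was unchanged.

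**Figure D1:**
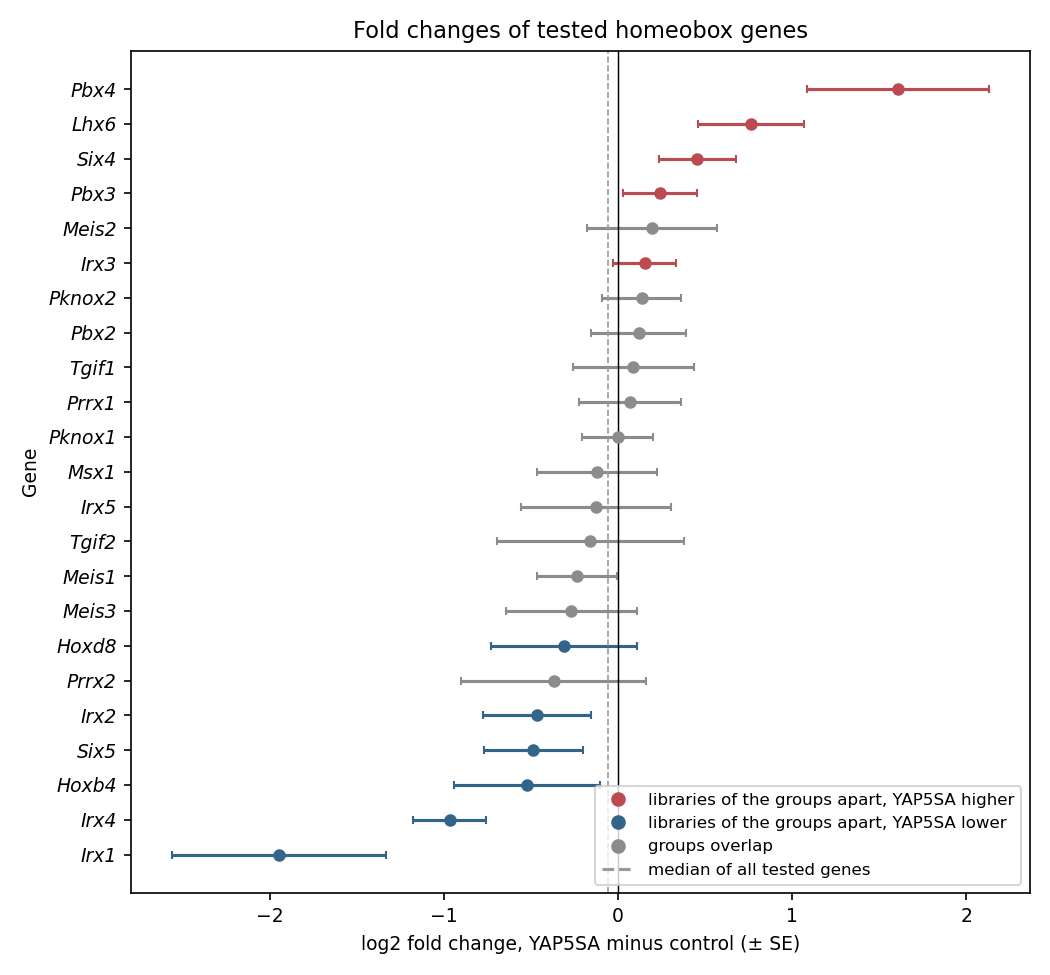
Log2 fold change (YAP5SA minus control) of tested homeobox genes, with points for the edgeR estimate and bars for ± 1 SE. Red and blue points are genes whose libraries do not overlap between the groups, grey points overlap, and the dashed line is the median of all tested genes (-0.06). Irx1 (-1.95) and Pbx4 (1.61) lie farthest out, and Irx4 (-0.97) has a shorter bar than either.

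Irx genes, which encode the Iroquois subgroup of TALE factors, lie in a pair of clusters, Irx1, Irx2 and Irx4 on chromosome 13 and Irx3, Irx5 and Irx6 on chromosome 8. Irx4 (chromosome 13, 73260479 to 73269608, mm10) measured 17.75 and 17.71 CPM in control and 8.49 and 9.64 CPM in YAP5SA. Both YAP5SA libraries lay well below a control pair that was almost identical. The log2 fold change was -0.97 (SE 0.207, edgeR adjusted p = 0.0668), and it stayed between -1.04 and -0.85 when single libraries were left out. With no filter on low counts Irx4 was called (edgeR adjusted p = 0.0197, where 11.2% of all tested genes were called). It was not called with DESeq2, with limma-voom or with either YAP5SA library left out. With either control library left out Irx4 was called. Such a fit takes its spread from the YAP5SA pair and does not measure that of the controls. The ventricular cardiomyocyte markers were lower in the same libraries: all 8 had a negative fold change (median -1.09, 0 called), with sums of 32328 and 64134 CPM in control against 22559.5 and 23774.1 CPM in YAP5SA. Most of that sum was Ttn (19901 and 48149 CPM in control against 15501 and 16678 CPM in YAP5SA). Fold changes of single markers ran from -1.38 (Myh6) to -0.24 (Tnnt2) on the log2 scale. The part of these markers in the Irx4 difference was not tested.

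Irx1 (chromosome 13, 71957921 to 71963723) measured 32.9 and 9.12 CPM in control and 6.40 and 4.56 CPM in YAP5SA. Control replicate 1 stood far above the other 3 libraries, which lay within a narrower range. The log2 fold change was -1.95 (SE 0.615, edgeR adjusted p = 0.142), or 3.85-fold on the linear scale, and DESeq2 called the decrease (adjusted p = 0.0185). Without control replicate 1 the log2 fold change was -0.72 and without control replicate 2 it was -2.54, so the size rests on control replicate 1. The largest adjusted p of Irx1 under any alternative was 0.631, without YAP5SA replicate 2. The 12 endothelial markers summed to 2370 and 1539 CPM in control and 1239 and 1162 CPM in YAP5SA, with Emcn and Egfl7 slightly lower in control replicate 1 than in replicate 2 and the other 10 higher. All 12 had a negative fold change (median -0.80) and 2 were called. Endothelial genes were not alone in this, as all 8 ventricular cardiomyocyte markers also had a negative fold change (median -1.09). Of the conduction system genes tested, 3 had a negative and 1 a positive fold change. Among smooth muscle and pericyte genes, 5 were negative and 3 positive. The part of any of these lists in the Irx1 difference was not tested.

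Irx2, from the same cluster, measured 10.7 and 7.27 CPM in control and 7.21 and 5.85 CPM in YAP5SA. The groups did not overlap, but the lowest control and the highest YAP5SA library nearly met (log2 fold change -0.47, SE 0.308, edgeR adjusted p = 0.408). Irx2 stood at -0.14 without control replicate 1 and at -0.67 without control replicate 2. Irx3 (chromosome 8, 91798525 to 91802067), a conduction system factor, was the most abundant Irx gene, with 19.8 and 22.3 CPM in control and 22.8 and 24.1 CPM in YAP5SA. All 4 libraries lay close together, and the fold change of 0.15 (SE 0.180) was within its error. Irx3 shares 124 exonic bases with its antisense gene Irx3os, and with the strand setting of the counting unknown, their reads cannot be told apart. Irx5 measured 5.98 and 13.6 CPM in control and 7.88 and 9.87 CPM in YAP5SA, both YAP5SA values falling between the controls. Irx6 had 2 counts in control replicate 1 and 0 in the other libraries.

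Meis1 and Meis2 were among the genes of the set with the highest CPM. Meis1 (chromosome 11, 18879817 to 19018985), the cell cycle restraint of postnatal mouse cardiomyocytes, measured 94.5 and 137 CPM in control and 105 and 91.5 CPM in YAP5SA. The groups overlapped, and the log2 fold change was -0.24 (SE 0.230, edgeR adjusted p = 0.577). Meis1 stood at -0.47 without control replicate 1 and at 0.093 without control replicate 2. Meis1 shares 896 exonic bases with an antisense gene and 1029 with a gene on its own strand, so its counts may hold reads of these. Meis2, a close paralog, measured 55.3 and 121 CPM in control and 107 and 93.9 CPM in YAP5SA (log2 fold change 0.19, SE 0.373). Both YAP5SA values of Meis2 lay between the control values. Meis3 had fewer counts, at 8.51 and 5.42 CPM in control and 7.08 and 4.56 CPM in YAP5SA, and the groups overlapped.

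Pbx genes encode partners of HOX and MEIS proteins. Pbx2 measured 22.6 and 14.01 CPM in control and 19.0 and 21.0 CPM in YAP5SA, with both YAP5SA values inside the control range. It shares 227 exonic bases with Gpsm3, a gene on its own strand. Pbx3 measured 17.7 and 13.7 CPM in control and 18.5 and 18.7 CPM in YAP5SA.

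Pbx4 (chromosome 8, 69832491 to 69872292), the least abundant Pbx gene, had raw counts of 11 and 3 in control and 35 and 28 in YAP5SA. That is 0.996 and 0.397 CPM against 2.36 and 2.13 CPM, with both YAP5SA libraries above both controls. The log2 fold change was 1.61 (SE 0.522, edgeR adjusted p = 0.149), a 3.05-fold difference. It ran from 1.20 without control replicate 2 to 2.48 without control replicate 1. With no filter on low counts Pbx4 was called (edgeR adjusted p = 0.0434). The largest adjusted p of Pbx4 under any alternative was 0.812, without YAP5SA replicate 2. With 3 counts in control replicate 2, Pbx4 reached the minimum count through the YAP5SA libraries, where it was higher. Macrophage markers were also higher in these libraries, with sums of 934 and 628 CPM in control against 1525 and 1832 CPM in YAP5SA (12 of 13 with a positive fold change, median 1.44, 6 called). The 7 Schwann and neuronal genes summed to 199 and 198 CPM against 683 and 853 CPM (1 of 5 tested called). Of the 5, 2 had a positive and 3 a negative fold change. Most of that sum was Prnp (187 and 189 against 672 and 843 CPM). The 8 epicardial and mesothelial genes summed to 166 and 124 CPM against 231 and 264.5 CPM. Of 7 tested, 5 had a positive and 2 a negative fold change. None was called and 6 had an unadjusted p under 0.05. Among those 6, Upk1b (log2 fold change -1.45) and Msln (-1.25) were lower in YAP5SA. No gene of these lists was at 0 in all libraries. The part of these markers in the values of Pbx4, and of Six4, Lhx6 and Eya1, which were also higher in YAP5SA, was not tested.

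The remaining TALE families showed no such gap. Pknox1, a MEIS-related partner of PBX, measured 24.6 and 19.3 CPM in control and 20.9 and 23.1 CPM in YAP5SA, and Pknox2 measured 11.5 and 14.8 CPM against 14.02 and 14.8 CPM. Tgif1, which encodes a repressor that acts with SMAD proteins, measured 15.1 and 8.06 CPM in control and 11.2 and 13.7 CPM in YAP5SA. Tgif2 stood at 2.35 and 1.19 CPM in control and 2.09 and 1.14 CPM in YAP5SA. Of its 3832 exonic bases, 2171 are shared with 5430405H02Rik, a gene on the opposite strand, so the Tgif2 counts may hold reads of that gene. In these 4 genes the groups overlapped, and edgeR adjusted p-values ran from 0.756 to 0.997.

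**Figure D2:**
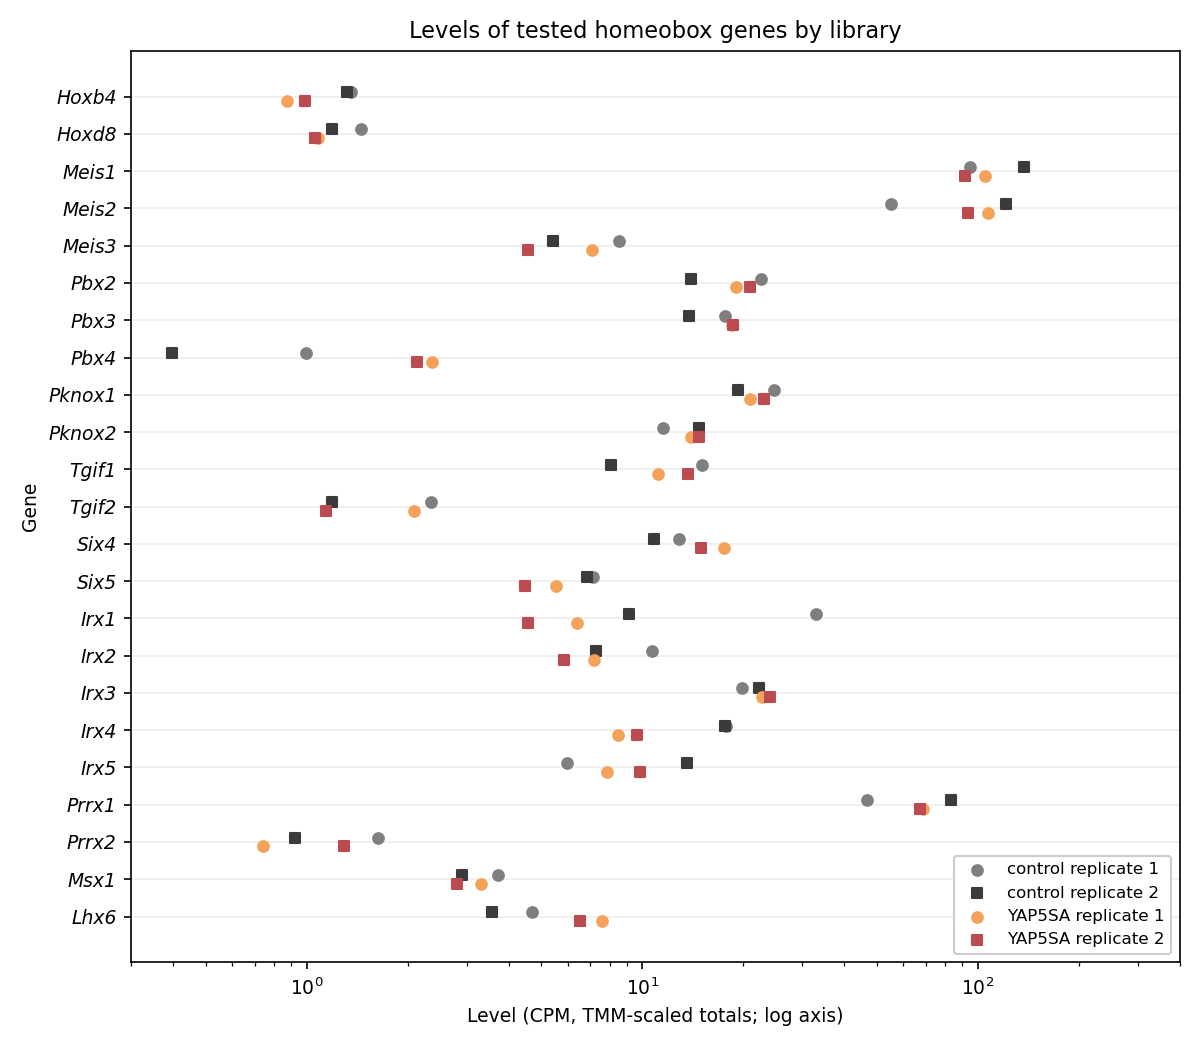
Levels of tested homeobox genes in each of the 4 libraries, in CPM on a log axis, with grey and black symbols for control and orange and red symbols for YAP5SA. Levels run from 0.397 CPM (Pbx4) to 137 CPM (Meis1), and the control replicates stand farthest apart at Irx1 (32.9 and 9.12 CPM).

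Per kilobase of exon, Meis1 had the highest mean level over the 4 libraries (10.2 CPM per kilobase), and high levels were also held by Irx3 (8.06), Meis2 (7.84), Prrx1 (6.02), Pbx2 (5.26), Irx4 (5.14) and Irx1 (5.05), while Hoxb4 and Hoxd8 stood at 0.443 and 0.435. The sources used here do not say whether intronic reads were counted, so these levels per length are approximate for genes with long introns. The control spread of Meis2 and Prrx1 was wider than the steps between these genes. The Irx1 mean came mostly from control replicate 1, at 32.9 CPM against 9.12 CPM in control replicate 2 and 6.40 and 4.56 CPM in YAP5SA.

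Sine oculis homeobox genes encode factors that act with EYA proteins in muscle and organ precursors. Six4 (chromosome 12, 73099609 to 73113456) measured 12.9 and 10.8 CPM in control and 17.6 and 14.96 CPM in YAP5SA, with no overlap (log2 fold change 0.45, SE 0.220, edgeR adjusted p = 0.282). Without control replicate 1 the log2 fold change was 0.60. Six5 measured 7.15 and 6.87 CPM in control and 5.53 and 4.48 CPM in YAP5SA (log2 fold change -0.49, SE 0.283), a gap in the other direction. Six2 had 13 and 6 against 11 and 8 counts. Six3 and Six6, eye and forebrain factors, each had 1 count in control replicate 1 and 0 elsewhere.

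Of the partner genes Eya1, Eya2, Eya3 and Eya4 and the cofactor genes Dach1 and Dach2, 5 were tested and 0 passed. At an unadjusted p under 0.05 (edgeR) there were 3, against 23.7% of all tested genes. Dach1 measured 16.6 and 15.1 CPM in control and 6.74 and 7.59 CPM in YAP5SA (log2 fold change -1.14, SE 0.222, edgeR adjusted p = 0.0557), and DESeq2 called this 1 gene. Eya1 measured 1.18 and 0.793 CPM in control and 3.77 and 3.27 CPM in YAP5SA (log2 fold change 1.80, adjusted p = 0.0750), and Eya2 2.72 and 1.45 CPM against 0.202 and 0.683 CPM (log2 fold change -2.26, adjusted p = 0.130). Eya1 reached the minimum count through the YAP5SA libraries and Eya2 through the control libraries, in each case the group where it was higher. Eya3, the partner gene with the highest CPM, measured 49.8 and 59.6 CPM in control and 56.1 and 58.5 CPM in YAP5SA.

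Prrx1 (chromosome 1, 163245119 to 163313710), the paired-related factor of connective tissue cells, measured 46.9 and 83.4 CPM in control and 68.8 and 67.5 CPM in YAP5SA. The YAP5SA libraries were close to each other and inside the control range (log2 fold change 0.07, SE 0.291, edgeR adjusted p = 0.913). The 12 fibroblast markers summed to 7024 and 5312 CPM in control and 5427 and 6507 CPM in YAP5SA. They did not move as one, and 6 had a positive and 6 a negative fold change. An unadjusted p under 0.05 (edgeR) was found for 6 of the 12, against 23.7% of all tested genes. These 6 were the ones with a positive fold change, and of them Lum was called (adjusted p = 0.0394). Col1a1 stood at 2020 and 1371 CPM in control against 1212 and 1370 CPM in YAP5SA. Dcn stood at 273 and 294 CPM in control against 408 and 488 CPM in YAP5SA. Prrx2, the paralog of Prrx1, measured 1.63 and 0.925 CPM in control and 0.741 and 1.29 CPM in YAP5SA. Msx1, a BMP-responsive repressor gene, measured 3.71 and 2.91 CPM in control and 3.30 and 2.81 CPM in YAP5SA, and the groups overlapped in both.

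Lhx6 (chromosome 2, 36081953 to 36105408), a LIM homeobox gene best known from forebrain interneurons, was the only Lhx gene tested. It measured 4.71 and 3.57 CPM in control and 7.61 and 6.53 CPM in YAP5SA, and the groups did not overlap. The log2 fold change was 0.76 (SE 0.306, edgeR adjusted p = 0.213), and 0.996 without control replicate 1. The other 7 Lhx genes had at most 8 counts in any library. Lhx9, which is expressed in gonad and limb precursors, had 3 and 0 counts in control and 8 and 7 in YAP5SA.

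**Figure D3:**
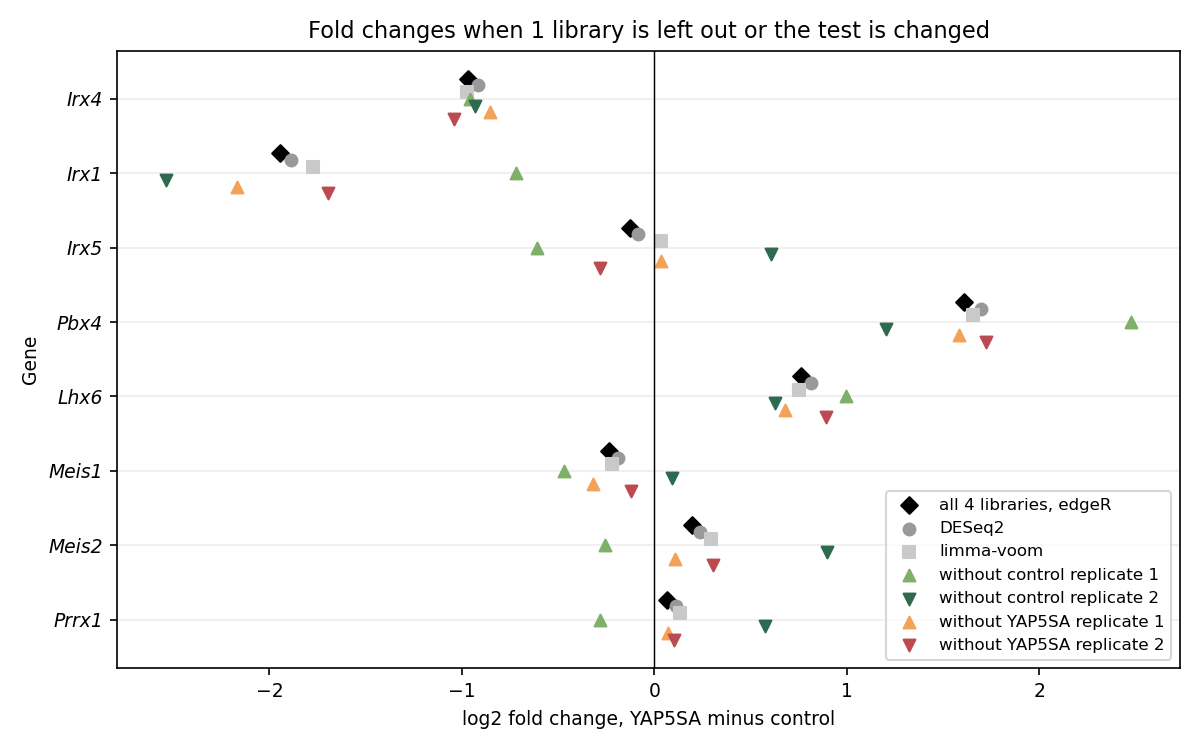
Log2 fold change (YAP5SA minus control) of 8 homeobox genes with all 4 libraries and edgeR (black diamonds), with DESeq2 or limma-voom, and with each library left out in turn. Irx4 kept a value between -1.04 and -0.85 when a library was left out, while Irx5, Meis1, Meis2 and Prrx1 changed sign depending on which control library was used.

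For Meis2, Pbx2, Pknox1, Tgif1, Irx5 and Prrx1, both YAP5SA libraries lay inside the range of the control libraries, as was the case for 22.0% of all tested genes. With YAP5SA between the controls, opposite directions against each control library follow from how these genes were picked and are not a separate result. Meis2 had a log2 fold change of -0.26 without control replicate 1 and 0.90 without control replicate 2. Prrx1 had -0.28 and 0.58, and Irx5 -0.61 and 0.60, in the same order. Of these values, that of Irx5 was called without control replicate 1 (adjusted p = 0.0316), and those of Meis2 (adjusted p = 1.66e-08) and Prrx1 (adjusted p = 0.000472) without control replicate 2. Pbx2 and Tgif1 were called without control replicate 1, at 0.52 (adjusted p = 0.0341) and 0.63 (adjusted p = 0.0385). With 1 control library left, 11 of 28 genes of the set were called without control replicate 1 (6 higher and 5 lower, where 36.2% of all tested genes were called, 18.8% higher and 17.4% lower) and 5 of 30 without control replicate 2 (2 higher and 3 lower, against 38.3% of all, 19.7% higher and 18.6% lower). Irx1 and Irx4 were the genes called in both. Without YAP5SA replicate 1 or without YAP5SA replicate 2, 0 were called, as were 0.388% and 0.143% of all tested genes. These fits assume that a lone library has the spread of the other group. Hoxa2 was among the genes called higher without control replicate 1. With 0 counts in control replicate 2 and 9 and 12 in YAP5SA, it reached the minimum count there through the YAP5SA libraries alone.

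Hox genes were near or below the limit of detection. Of the 39, 18 had 0 counts in all 4 libraries, 21 had at least 1 count and 2 were tested. All Hox counts together came to 85 and 37 in control and 56 and 77 in YAP5SA, or 7.70 and 4.89 CPM against 3.77 and 5.85 CPM, with overlap between the groups. The Hoxc cluster held almost no counts, with Hoxc13 (2 and 0 against 2 and 1 counts) and Hoxc6 (2 counts in control replicate 1) as the genes with any count.

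Summed over the clusters, most Hox counts lay in the anterior paralog groups. Paralog groups 1 to 4, which mark anterior domains, held 156 counts in 8 of 12 genes. Groups 5 to 8 held 85 counts in 7 of 11 genes, and groups 9 to 13, the posterior genes, held 14 counts in 6 of 16 genes. This order was not that of every cluster: Hoxd8 alone held 55 of the 85 counts of groups 5 to 8, while Hoxd1 and Hoxd3 had 0 and Hoxd4 had 2, and in the Hoxc cluster Hoxc13 held 5 counts and Hoxc4 held 0. In CPM, groups 1 to 4 summed to 3.89 and 3.04 in control and 2.29 and 4.25 in YAP5SA, which overlap. Groups 5 to 8 summed to 3.26 and 1.72 against 1.15 and 1.44, which do not, and this sum was not tested.

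**Figure D4:**
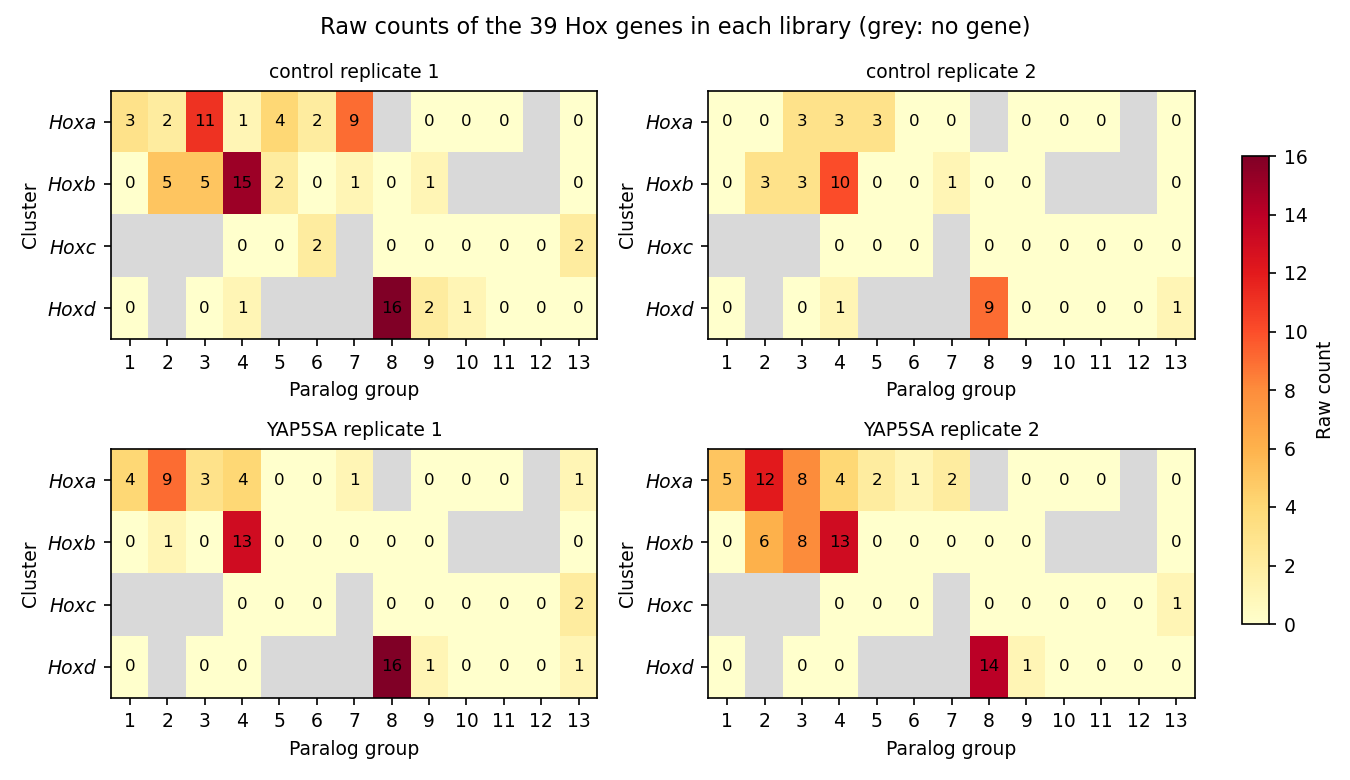
Raw counts of the 39 Hox genes, with 1 panel for each library, clusters in rows and paralog groups in columns. Colour and numbers give the count, and grey marks positions without a gene. The highest values are at Hoxb4 (10 to 15 counts) and Hoxd8 (9 to 16 counts) in every library, and the columns from 9 onward are near 0.

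Hoxb4 (chromosome 11, 96318267 to 96321638), an anterior HOX gene, had 15 and 10 counts in control and 13 and 13 in YAP5SA. In CPM it stood at 1.36 and 1.32 against 0.876 and 0.987, with no overlap (log2 fold change -0.52, SE 0.418, edgeR adjusted p = 0.492). Hoxd8 (chromosome 2, 74704615 to 74707933) had 16 and 9 counts in control and 16 and 14 in YAP5SA, or 1.45 and 1.19 against 1.08 and 1.06 CPM (log2 fold change -0.31, SE 0.416, adjusted p = 0.693). Neither passed the threshold.

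Within the Hoxa cluster, Hoxa3 had the most counts, 11 and 3 in control and 3 and 8 in YAP5SA. Hoxa2 (chromosome 6, 52162417 to 52164831), which patterns the hindbrain and second branchial arch, had 2 and 0 counts in control and 9 and 12 in YAP5SA. The ratio of its summed counts, YAP5SA over control, was 6.98 (95% exact counting interval 1.71 to 61.4). Hoxa2 shares 267 exonic bases with Gm28308, a gene on its own strand. Of 39 untested genes with a count, the interval lay above 1 for 1, Hoxa2. It lay below 1 for 3, Hoxa5 (ratio 0.19), Hoxa7 (0.22) and Dlx3 (0.11). The intervals were not adjusted for the number of genes. The matching share among all genes with low counts was not computed, so these genes cannot be set apart from that background. Hoxa7 had 9 and 0 counts in control and 1 and 2 in YAP5SA, so that 9 of its 12 counts came from control replicate 1, and Hoxa5 had 4 and 3 against 0 and 2. Such intervals and the floors above hold counting error alone (the reads had no molecular identifiers) and not the spread between libraries.

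Noncoding RNAs of the Hox loci were equally sparse. Of 16 listed, 11 were in the table, 5 of them (Hotair, Hottip, Hoxa11os, Hoxb5os and Haglr) had 0 counts in all libraries, and Halr1 alone was tested. Halr1, a noncoding RNA beside the Hoxa cluster, had 0 and 2 counts in control and 15 and 11 in YAP5SA, so that it reached the minimum count through the YAP5SA libraries alone, and it was not called. Hoxaas2, antisense to Hoxa3, had 1 and 1 against 5 and 10.

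Dlx genes and the rest of the untested genes had few counts. Dlx3, a craniofacial and skin factor gene, had 11 and 1 counts in control and 2 and 0 in YAP5SA, with 11 of its 14 counts in control replicate 1. Msx2 had 7 and 3 against 8 and 14 counts. Of the 59 untested genes, 36 had a count in control replicate 1, 16 in control replicate 2 and 25 in each YAP5SA library.

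MLL proteins and their partners keep Hox genes active. Of 13 tested genes of the MLL type, 0 passed with edgeR or DESeq2 and 0 had an unadjusted p under 0.05 (median -0.05). Kdm6a, which encodes an H3K27 demethylase, had the smallest p (edgeR adjusted p = 0.269).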

How the data were processed

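Raw counts for the 4 nuclear RNA-seq libraries, 1 row for each gene symbol, were used as deposited. Per the labels' protocols, RNA of bead-bound nuclei was depleted of ribosomal RNA, made into stranded libraries and read from both ends, and reads were mapped to mm10 with STAR. The submitters' processing notes also name DESeq2. The sources used here do not name the counting program, its strand setting or the annotation.

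Genes were kept by filterByExpr (minimum count 10), scaled by TMM and compared with edgeR 4.0.16 in R 4.3.3 (quasi-likelihood F test), without a replicate block, over all 17715 tested genes with Benjamini-Hochberg adjustment at 0.05. The SE was derived from the fold change and its F value. DESeq2 1.42.0 and limma 3.58.1 were alternatives, and the pipeline was tested on simulated data. Coordinates and exon overlaps came from GENCODE M21 (GRCm38, that is mm10), in which all 84 symbols matched. ATAC-seq and 4C-seq samples were not analysed here.

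Some genes of the set, and the list of Polycomb genes, are not reported here. The genes and lists were chosen with earlier results of these data known. Described singly were genes with an adjusted or unadjusted p under 0.05, the most abundant of each family, tested genes with groups apart and a log2 fold change of at least 1, and tested genes whose control libraries differed at least 4-fold (none did). Others were added after their values were seen.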

Additional observations from a re-analysis of the deposited data

How the results depend on the processing

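The number of genes of the set called was 0 with all 4 libraries and edgeR, and stayed 0 with RLE size factors, library totals, the minimum count of 30, limma-voom and the replicate block. It was 3 with no filter on low counts (Irx1, Irx4 and Pbx4; background 11.2%) and 1 with DESeq2, and ran from 0 to 11 when 1 library was left out. Over all genes the count of 730 became 3416 with no filter, 1596 with DESeq2 and 433 with the replicate block, and ran from 27 to 7303 with a library left out. The labels number the replicates. The correlation between the groups in replicate 1 minus replicate 2 was -0.092 over 17715 genes. With 2 libraries in each group, this value cannot show whether same-numbered libraries were paired. For the EYA and DACH genes the count of 0 became 3 of 6 with no filter (background 11.2%) and 1 of 5 with DESeq2 (background 8.53%). With the minimum count of 30 it was 1 of 3, where 719 of all 14306 tested genes were called. MLL genes had 0 in every fit with all 4 libraries, and Hox locus noncoding RNAs had 1 of 6 with no filter. The counts of each list also shifted with a control library left out. The shorter TEAD core raised the share of windows with a match from 7.94% to 25.4%, and that of all windows to 38.7%. The genes below changed sign and were not called with all libraries. With a library left out the log2 fold change ran from -0.47 to 0.093 for Meis1, -0.26 to 0.90 for Meis2, -0.59 to 0.12 for Meis3, -0.14 to 0.52 for Pbx2, -0.13 to 0.19 for Pknox1, -0.031 to 0.36 for Pknox2, -0.25 to 0.63 for Tgif1, -0.62 to 0.46 for Tgif2, -0.61 to 0.60 for Irx5, -0.28 to 0.58 for Prrx1, -0.77 to 0.13 for Prrx2 and -0.24 to 0.083 for Msx1. Pknox1, at -0.0019, was 0.0039 with RLE size factors, 0.024 with library totals, 0.046 with no filter, 0.049 with DESeq2 and 0.0070 with the replicate block, and Irx5 was 0.034 with limma-voom. For genes with YAP5SA inside the control range, the change of sign between the control libraries follows from that range. The cause of the other shifts was not tested. At these depths, 59 genes of the set had too few counts for a test.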
